A study of Homo sapiens with 6 samples.

Results

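The synaptotagmin-like (SYTL) and ferlin genes encode proteins with several calcium- and lipid-binding C2 domains that work where vesicles meet the plasma membrane. They were taken from the array table by symbol, as SYTL1, SYTL2, SYTL3, SYTL4, SYTL5, FER1L4, FER1L5, FER1L6, MYOF and DYSF. Of these 10 genes 7 carried a probe set in the platform annotation, out of 14884 named genes in all. FER1L4, FER1L5 and DYSF were not analysed here. RefSeq classes FER1L4 as a transcribed pseudogene, so the statement on encoded proteins does not cover it. Each of the 7 had 1 probe set, so the rule for genes with several, to keep the 1 whose mean over the 6 arrays is highest, decided nothing.

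The arrays measured SKOV3 cells, an established human ovarian carcinoma line, grown for 11 days in McCoy's 5A medium with 15% fetal bovine serum. The 3D group (3 arrays) grew on low-attachment 96-well plates in medium with 0.015% (w/v) FP001, a medium supplement that the labels give by code name alone. The 2D group (3 arrays) grew on attachment plates in normal medium, and the treatment protocol names Milli-Q water as the counterpart of FP001. Effects of the plate and of FP001 cannot be told apart, since both differ between the groups. The labels do not state that the arrays of a group stem from separate cultures, and a p-value then covers no more than the spread between these arrays, possibly a technical one.

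Synaptotagmin-like proteins carry an N-terminal domain that binds the small GTPase RAB27 and a C-terminal pair of C2 domains that bind phospholipid, and through these they tether RAB27-coated vesicles to the plasma membrane. Ferlins are larger, tail-anchored proteins with a row of C2 domains, known for vesicle fusion, receptor recycling and the resealing of torn membrane. In epithelial cells such traffic builds the apical surface and the lumen.

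Values are log2 RMA values, on which 1 unit is a 2-fold difference, and differences are 3D minus 2D. The level of a probe set cannot be set against that of another. Over all genes, 1488 passed an adjusted p of 0.05 (limma, Benjamini-Hochberg over all genes), 778 higher and 710 lower in 3D. The median difference was -0.01. 3D replicate 1 stood apart from its group, with scores of 26.0 for it, against -9.39 and -10.1 for 3D replicates 2 and 3, on the component with 18.4% of the variance. Results that rest on that array are given without it as well. Of 12 ovarian carcinoma epithelium markers 10 were measured, all above the median of the probe sets. ERBB2 and MUC16 were not analysed here. Also above that median were 5 of 6 measured leukocyte, 4 of 5 endothelial and 1 of 2 fibroblast markers, so it did not separate the lists. Array means of the 10 epithelial markers were 8.26 to 8.48 in 3D and 7.86 to 7.91 in 2D. Of these markers 4 passed as higher in 3D (EPCAM, KRT19, CLDN3 and CLDN4) and 2 as lower (KRT7 and CD24). Array means of 6 measured leukocyte markers were 5.52 to 5.79 in 3D and 5.66 to 5.75 in 2D, with CD68 the 1 member that passed. Those of 5 endothelial markers were 4.67 to 4.83 in 3D and 4.47 to 4.54 in 2D, with PECAM1 the 1 that passed (4.95 in 3D and 3.68 in 2D). Of the fibroblast markers 2 were measured: LUM averaged 10.47 in 3D and 6.08 in 2D and passed, while DCN stayed under the lower quartile of the probe sets (2.94) with 2.57 in 3D and 2.45 in 2D. Their part in the results below was not tested.

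SYTL5 and FER1L6 read higher in 3D culture than in 2D culture, by 3.03 and 2.69 units. The other 5 genes differed by less than 1 unit. The genes were chosen with results of this comparison known, so the values of SYTL5 and FER1L6 are a description without a test. For the other 5 genes the adjusted p of the fit over all genes is given, under the same limit of choice. Counted by the fit, 2 of 7 genes (28.6%) passed in the direction of 3D and 0 in the other, beside 10% of all genes in either direction, 5.23% higher in 3D and 4.77% lower. The count was also 2 without 3D replicate 1, and nothing is read from it. The groups did not overlap for 3 of 7 genes, 2 higher in 3D and 1 lower, where 29.2% of all genes did not overlap (13.8% higher and 15.3% lower). The median difference of the 7 genes was -0.01, as it was over all genes.

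**Figure D1:**
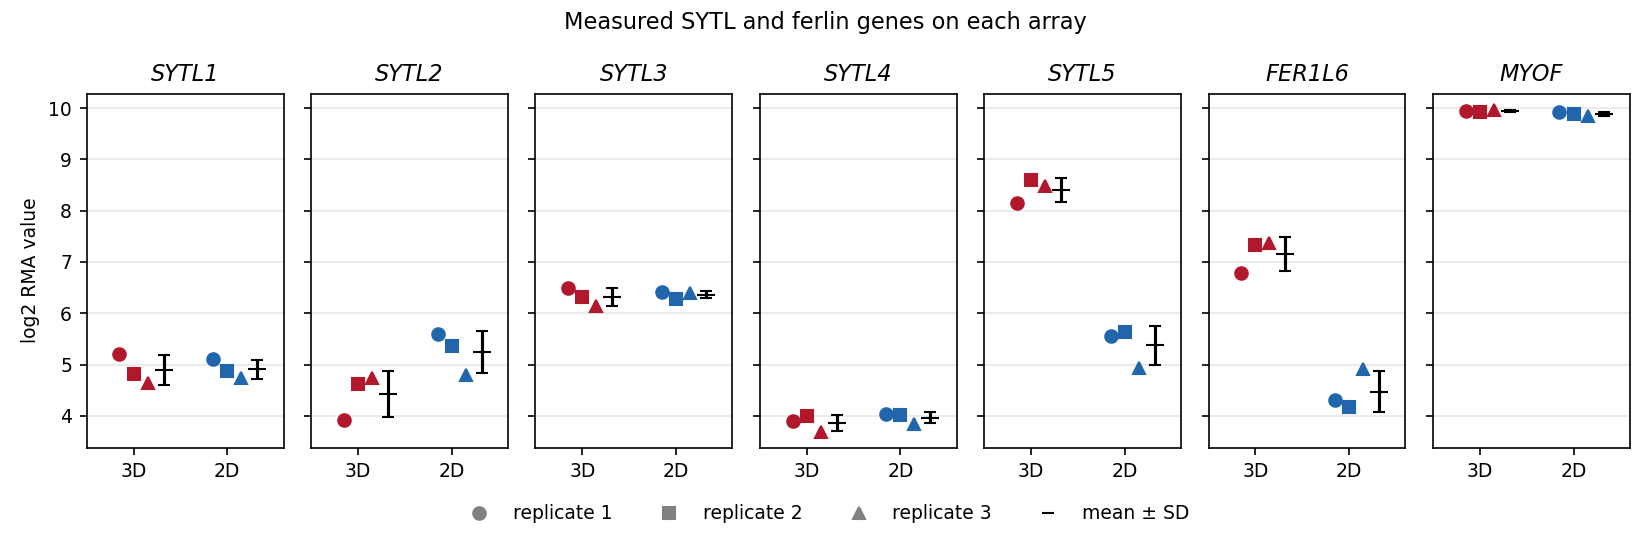
Log2 RMA value (vertical axis) of each of the 7 measured genes on every array, with 3D arrays (red) left of 2D arrays (blue), replicate number by marker shape, and mean ± SD in black (n = 3 per group). SYTL5 and FER1L6 sit 2.50 and 1.85 units clear of their 2D arrays, SYTL2 lies below its 2D arrays by 0.07, and the other groups overlap; levels cannot be compared between panels.

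SYTL5 encodes the synaptotagmin-like protein that completes the family of 5, binds RAB27A and is the least studied of them. It lies on chromosome X, at 37888915 to 38128820 in RefSeq (GRCh38.p14), the chromosome that also carries SYTL4. The promoter windows that RefSeq gives for it are shown because this gene had the largest difference of the 7. Both lie inside its annotated span, downstream of its 5′ end, and no window at that end was used here. Each runs 5′ to 3′ on the strand of the gene, from 250 bases before an annotated start to 50 bases after it, and capitals mark matches to CATTCC (the core bound by TEAD factors), TGANTCA (AP-1) or CAGGTG (an E-box bound by epithelial repressors), searched on both strands. The window of SYTL1, a gene that did not pass, follows for comparison.
SYTL5, chrX:38006303-38006602, plus strand: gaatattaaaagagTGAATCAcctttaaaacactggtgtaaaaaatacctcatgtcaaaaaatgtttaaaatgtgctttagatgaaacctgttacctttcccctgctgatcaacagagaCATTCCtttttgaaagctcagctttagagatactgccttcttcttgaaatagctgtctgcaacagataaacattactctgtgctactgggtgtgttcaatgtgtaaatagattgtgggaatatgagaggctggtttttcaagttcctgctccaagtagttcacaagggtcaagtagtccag
SYTL5, chrX:38033284-38033583, plus strand: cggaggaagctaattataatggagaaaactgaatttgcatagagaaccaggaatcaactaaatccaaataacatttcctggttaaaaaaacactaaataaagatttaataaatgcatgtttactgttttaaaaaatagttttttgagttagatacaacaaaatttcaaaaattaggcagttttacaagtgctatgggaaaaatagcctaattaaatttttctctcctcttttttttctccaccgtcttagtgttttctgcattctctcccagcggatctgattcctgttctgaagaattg
SYTL1, chr1:27341772-27342071, plus strand: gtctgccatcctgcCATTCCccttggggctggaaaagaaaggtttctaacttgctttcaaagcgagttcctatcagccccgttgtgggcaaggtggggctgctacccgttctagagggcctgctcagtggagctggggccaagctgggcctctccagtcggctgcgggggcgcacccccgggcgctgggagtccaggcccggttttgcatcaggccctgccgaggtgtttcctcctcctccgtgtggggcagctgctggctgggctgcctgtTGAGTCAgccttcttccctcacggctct

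The first SYTL5 window held 1 CATTCC match and 1 TGANTCA match, and the second held neither. Of all 35116 RefSeq windows of 300 bases, 14.0% held a CATTCC match, 7.7% a TGANTCA match and 20.6% a CAGGTG match. The SYTL1 window also held 1 match to each of CATTCC and TGANTCA. No match to CAGGTG was found in any of these 3 windows, and no overlap between matches occurred. The SYTL5 windows held 0 and 3 CpG dinucleotides, against 6 and 1 in the windows of SYTL3, 11 and 23 in those of SYTL4, 12 each in those of SYTL1 and MYOF, and a median of 14 over all windows. Their G and C bases made up 37.7% and 31.0%, against 52.7% and 37.3% for SYTL3, 46.7% for MYOF, 60.7% and 69.7% for SYTL4, 63.7% for SYTL1 and a median of 58.7%. Low CpG content was thus shared with SYTL3, which did not pass. A match is only a run of letters, and nothing here measured a factor at these windows. Of the 7 genes 5 had a window in the RefSeq table; FER1L6 and SYTL2 had none there.

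SYTL5 read 8.14, 8.59 and 8.48 in 3D replicates 1 to 3, against 5.56, 5.63 and 4.93 in 2D replicates 1 to 3. The lowest 3D array stood 2.50 above the highest 2D array, and the spread within a group was 0.45 in 3D and 0.71 in 2D. The means were 8.40 ± 0.24 in 3D and 5.37 ± 0.39 in 2D (SD, n = 3 each), a difference of 3.03 ± 0.21 (SE), or 8.15-fold. The 95% interval ran from 2.54 to 3.51. Only 11 of 14884 genes differed by more in the direction of 3D. Without 3D replicate 1, which gave the lowest 3D value, the difference was 3.16.

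FER1L6 encodes a ferlin whose role in human cells is little studied; it lies on chromosome 8. It read 6.78, 7.33 and 7.36 in 3D replicates 1 to 3, against 4.31, 4.17 and 4.92 in 2D replicates 1 to 3. All 3D arrays stood at least 1.85 above the highest 2D array, 2D replicate 3, and 3D replicate 1 was again the lowest of its group. The means were 7.16 ± 0.33 in 3D and 4.47 ± 0.40 in 2D (SD, n = 3 each), which gave a difference of 2.69 ± 0.23 (SE), or 6.45-fold, with a 95% interval of 2.15 to 3.23. It had the rank of 18 among rises over all genes, and without 3D replicate 1 the difference was 2.88. FER1L6-AS1, a long non-coding RNA gene that overlaps the FER1L6 locus, had a probe set of its own at 3.85 in 3D and 3.72 in 2D (adjusted p = 0.782, limma). Whether the arrays separate the strands is not given in the sources used here.

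SYTL2 encodes Slp2-a, a RAB27A effector that docks melanosomes in pigment cells and, in cultured kidney epithelium of dogs, carries podocalyxin to the apical surface. It read 3.91, 4.62 and 4.74 in 3D replicates 1 to 3, against 5.60, 5.36 and 4.80 in 2D replicates 1 to 3. Every 3D array lay below every 2D array, but 3D replicate 3 and 2D replicate 3 were only 0.07 apart, and each group spread over 0.80 or more. The means were 4.42 ± 0.45 in 3D and 5.26 ± 0.41 in 2D (SD, n = 3 each), a difference of -0.83 ± 0.27 (SE) that did not pass (adjusted p = 0.102, limma). The 95% interval was -1.45 to -0.21 before adjustment. Without 3D replicate 1, its lowest value, the difference was -0.58 (adjusted p = 0.155, limma). Across all alternatives the adjusted p of SYTL2 ran from 0.0687 to 0.423.

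**Figure D2:**
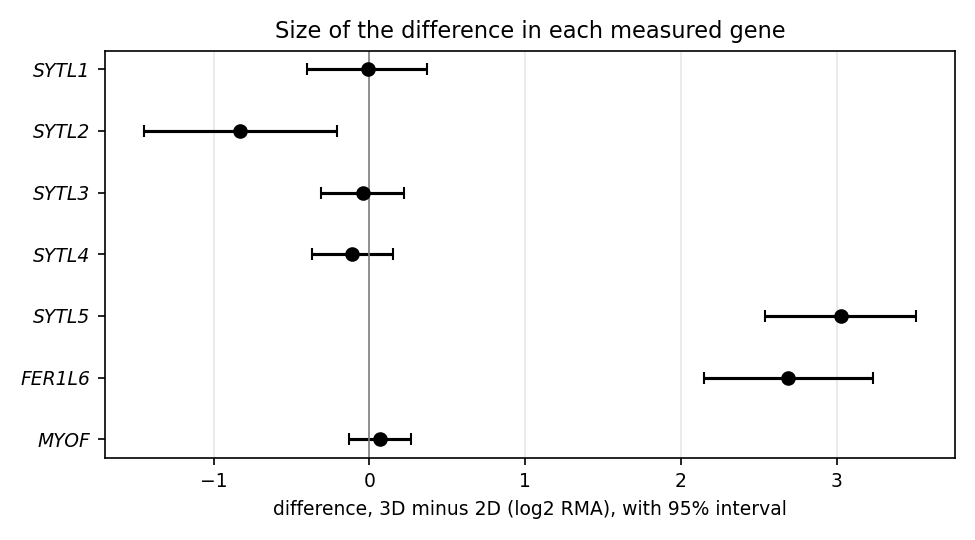
Difference between 3D and 2D (horizontal axis, log2 RMA; point, limma estimate; bar, 95% interval without adjustment) of the 7 genes. SYTL5 (3.03) and FER1L6 (2.69) are drawn as a description, the interval of SYTL2 (-1.45 to -0.21) lies left of 0, and those of SYTL1, SYTL3, SYTL4 and MYOF include 0.

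The other synaptotagmin-like genes gave small differences whose intervals include 0. SYTL1 encodes Slp1, also called JFC1, a RAB27A effector in granule secretion by leukocytes. It read 5.21, 4.82 and 4.65 in 3D replicates 1 to 3, against 5.10, 4.88 and 4.74 in 2D replicates 1 to 3. The 3D arrays spanned all of the 2D arrays, and the difference was -0.01 ± 0.16 (SE, adjusted p = 0.975, limma; 95% interval -0.40 to 0.37). SYTL3 encodes Slp3-a, known for linking secretory granules of cytotoxic T cells to a microtubule motor. It read 6.49, 6.31 and 6.15 in 3D replicates 1 to 3, against 6.42, 6.28 and 6.39 in 2D replicates 1 to 3. Its highest and its lowest value were both 3D arrays, and the difference was -0.04 ± 0.11 (SE, adjusted p = 0.875, limma; 95% interval -0.31 to 0.22). SYTL4 encodes granuphilin, which docks insulin granules in pancreatic beta cells. It read 3.90, 3.99 and 3.69 in 3D replicates 1 to 3, against 4.04, 4.01 and 3.85 in 2D replicates 1 to 3. The groups overlapped here too, with a difference of -0.11 ± 0.11 (SE, adjusted p = 0.652, limma; 95% interval -0.37 to 0.15). The means of all 7 probe sets over the 6 arrays lay above the lower quartile of the probe sets.

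MYOF encodes myoferlin, a ferlin of myoblast fusion that also takes part in endocytosis and in the recycling of growth factor receptors. It read 9.94, 9.93 and 9.97 in 3D replicates 1 to 3, against 9.93, 9.88 and 9.84 in 2D replicates 1 to 3. The lowest 3D array and the highest 2D array both read 9.93, and the groups were the tightest among the 7 genes, with an SD of 0.02 in 3D and 0.05 in 2D. The difference of 0.07 ± 0.09 (SE) did not pass (adjusted p = 0.723, limma), and its 95% interval, -0.13 to 0.27, lies well inside a 2-fold change.

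Agreement of the arrays differed among the genes. The SD within a group reached 0.45 in 3D for SYTL2 and 0.41 in 2D, whereas MYOF stayed at or below 0.05 in both. In SYTL5, FER1L6 and SYTL2, the genes with the largest differences, 3D replicate 1 was the lowest 3D array. This placed it nearest to 2D for SYTL5 and FER1L6 (2.76 and 2.31 above their 2D means) and farthest from 2D for SYTL2, at -1.34 from its 2D mean. 2D replicate 3 was the lowest 2D array for SYTL5 and SYTL2 and the highest for FER1L6.

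**Figure D3:**
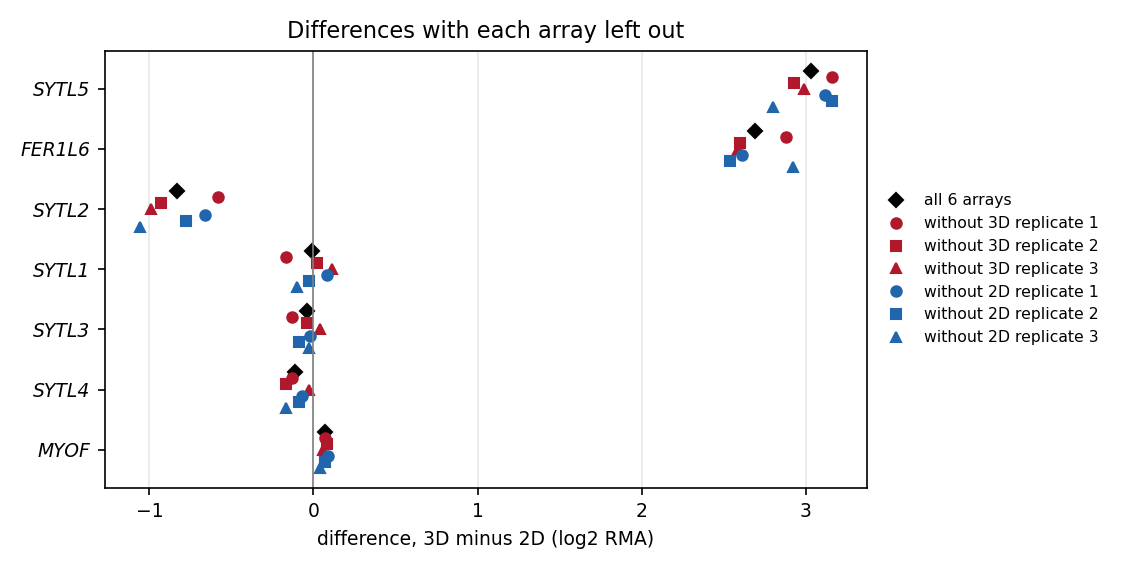
Difference between 3D and 2D (horizontal axis, log2 RMA) of each gene with all 6 arrays (black diamond) and with each array left out (red, a 3D array; blue, a 2D array; shape, replicate number). SYTL5 stays between 2.80 and 3.16 and FER1L6 between 2.54 and 2.92, SYTL2 moves between -1.06 and -0.58, and SYTL1 (-0.17 to 0.11) and SYTL3 (-0.13 to 0.04) change sign.

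The genes whose array profile was most like that of SYTL5 were KRT19, SUSD2 and LRRC31, by the root mean square difference between mean-centred log2 values over the 6 arrays (0.195, 0.209 and 0.225). KRT19, encoding a keratin of simple epithelium, read 9.50, 10.27 and 10.11 in 3D replicates 1 to 3, against 7.47, 7.45 and 6.87 in 2D replicates 1 to 3. As in SYTL5, its lowest arrays within the groups were 3D replicate 1 and 2D replicate 3. SUSD2, encoding a sushi domain protein of the cell surface, averaged 10.21 ± 0.22 in 3D and 6.90 ± 0.14 in 2D (SD, n = 3 each). LRRC31, encoding a leucine-rich repeat protein, averaged 6.72 ± 0.10 in 3D and 3.75 ± 0.11 in 2D. For SYTL2 the nearest profiles were those of NABP1, a single-strand DNA-binding protein gene, RTKN2, a rhotekin gene, and the antisense RNA gene ZNF674-AS1 (0.131, 0.158 and 0.165). NABP1 read 5.96, 6.59 and 6.47 in 3D replicates 1 to 3, against 7.67, 7.45 and 6.94 in 2D replicates 1 to 3, so that it had the same order of arrays within the 2D group. NABP1 differed by -1.02, RTKN2 by -0.57 with overlapping groups and ZNF674-AS1 by -0.63. All were picked by the same array values, so no p is given for them. With 6 arrays in 2 groups, likeness to SYTL5 mostly restates the group difference. Likeness to SYTL2 also takes in the order of arrays within a group. Both are given as a description.

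Genes of the pathway around these proteins were read next, from lists chosen with earlier results on these arrays known. Of 28 other genes on the list of synaptotagmins and further tandem C2 domain proteins 22 were measured. Of these, 2 rose (OTOF and SYT14), 1 fell (SYT15) and 19 did not pass, a called share of 13.6% beside 10% over all genes, with a median difference of -0.03. OTOF, the ferlin that serves exocytosis in the inner hair cells of the ear, read 5.51, 5.67 and 5.41 in 3D replicates 1 to 3, against 4.69, 5.00 and 5.05 in 2D replicates 1 to 3. All 3D arrays lay at least 0.36 above the 2D arrays, and OTOF rose by 0.61 ± 0.13 (SE, adjusted p = 0.0238, limma). That call ended without 2D replicate 1 or 2 or 3D replicate 2 or 3, at an adjusted p of up to 0.0927 (limma). SYT15, a synaptotagmin gene, averaged 6.67 ± 0.14 in 3D and 7.60 ± 0.16 in 2D (SD, n = 3 each) and fell by 0.93 (adjusted p = 0.00339, limma). SYT14 averaged 6.48 ± 0.09 in 3D and 6.06 ± 0.05 in 2D and rose by 0.42 (adjusted p = 0.0299, limma), a call that ended without any single array other than 3D replicate 1 (with adjusted p up to 0.127, limma).

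RAB27A and RAB27B, the GTPases that synaptotagmin-like proteins bind, were not analysed here. Nor were the other Rab GTPases on the list that follows, so its counts cover no Rab GTPase. Of 33 genes on the list of RAB27 pathway GTPases and other RAB27 effectors 18 were measured, and 1 rose, 2 fell and 15 did not pass (16.7% called, beside 10% of all genes, median difference 0.14). Without 3D replicate 1, 3 rose and 2 fell, where 1899 of 14884 genes passed, 1096 higher and 803 lower. EXPH5 encodes exophilin 5, also called Slac2-b, a RAB27 effector related to the synaptotagmin-like proteins that lacks C2 domains. It read 5.79, 5.93 and 5.76 in 3D replicates 1 to 3, against 5.42, 5.02 and 5.17 in 2D replicates 1 to 3, and rose by 0.63 ± 0.13 (SE, adjusted p = 0.0204, limma). The EXPH5 call ended without 2D replicate 2 or 3 or 3D replicate 2 or 3 (adjusted p up to 0.0838, limma). CHML encodes a Rab escort protein, which presents Rab GTPases for lipid attachment. It averaged 6.87 ± 0.13 in 3D and 7.55 ± 0.14 in 2D (SD, n = 3 each) and fell by 0.67 (adjusted p = 0.0106, limma). RIMS1, a scaffold gene of the presynaptic active zone, read 3.93, 3.76 and 3.77 in 3D replicates 1 to 3, against 5.50, 4.80 and 4.97 in 2D replicates 1 to 3. It fell by 1.27 ± 0.18 (SE, adjusted p = 0.00427, limma), the largest fall on that list.

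**Figure D4:**
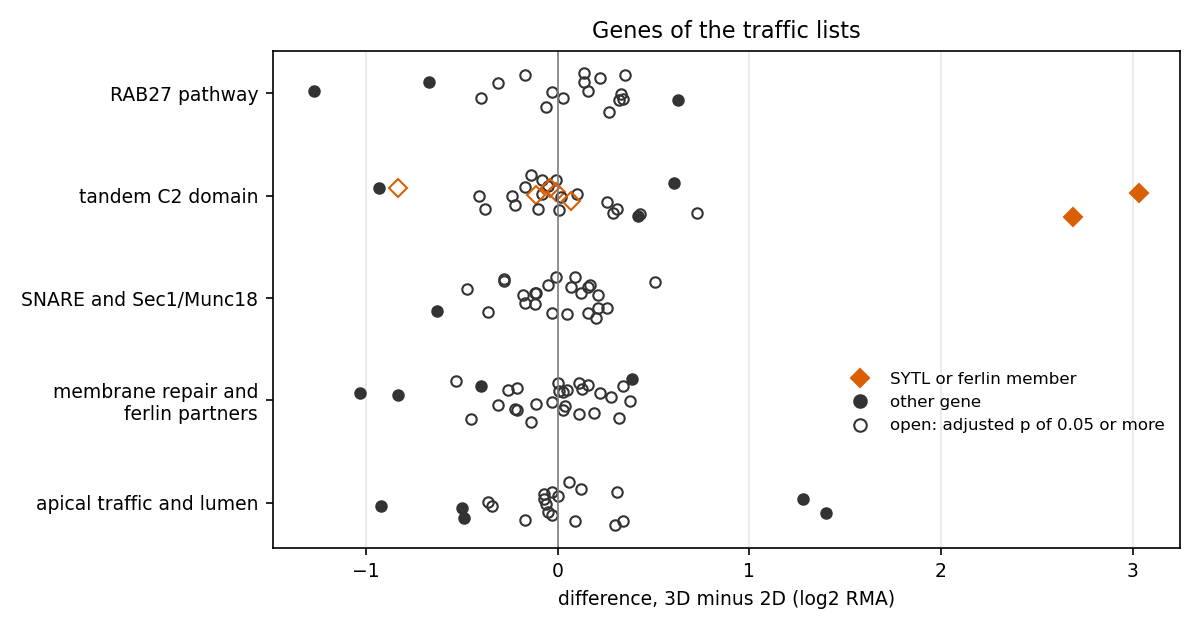
Difference between 3D and 2D (horizontal axis, log2 RMA) of every measured gene on the 5 traffic lists (rows), with the SYTL and ferlin genes as orange diamonds and symbols filled where the adjusted p over all genes was under 0.05 (limma). Apart from SYTL5 (3.03) and FER1L6 (2.69), the listed genes lie between -1.27 (RIMS1) and 1.40 (TJP3). The fill of SYTL5 and FER1L6 is a description alone.

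The SNARE and Sec1/Munc18 genes, whose products drive the fusion of docked vesicles, came next. The listed SNAP23, SNAP25, SNAP29, SNAP47, NAPA, NAPB and NAPG were not analysed here. Of 35 listed genes 25 were measured, and 0 rose, 1 fell and 24 did not pass by limma (4% called, beside 10% of all genes, median -0.01). At an unadjusted p under 0.05 (limma) there were 4 of the 25, beside 23.5% of all genes. That limit was met by 10 of 18 genes on the RAB27 list and 8 of 22 other tandem C2 genes. On the membrane repair and apical lists below, 12 of 30 and 10 of 21 genes met it. These shares were not tested either. The gene that fell was STXBP6, which encodes amisyn, a syntaxin-binding protein. It read 4.04, 4.28 and 4.09 in 3D replicates 1 to 3, against 4.79, 4.71 and 4.80 in 2D replicates 1 to 3, a fall of 0.63 ± 0.10 (SE, adjusted p = 0.00772, limma). Without 3D replicate 1, 2 of the 25 genes rose and 1 fell. In that setting 1899 of 14884 genes passed, 1096 higher and 803 lower, and nothing is read from the SNARE count.

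Of 40 membrane repair and ferlin partner genes 30 were measured, and 1 rose, 3 fell and 26 did not pass (13.3% called, beside 10% of all genes, median 0.02). CAVIN1 encodes a coat protein of caveolae, the surface pits whose caveolins bind dysferlin in muscle. It averaged 8.27 ± 0.15 in 3D and 9.30 ± 0.08 in 2D (SD, n = 3 each) and fell by 1.03 (adjusted p = 0.00114, limma). AHNAK, encoding a giant scaffold protein that binds dysferlin, averaged 8.04 ± 0.18 in 3D and 8.87 ± 0.23 in 2D and fell by 0.83 (adjusted p = 0.0125, limma), a call that ended without 2D replicate 3 (adjusted p = 0.0512, limma). EHD4, of the membrane-remodelling family whose member EHD2 binds myoferlin, fell by 0.40 (adjusted p = 0.0429, limma), and that call ended whichever array was left out (adjusted p up to 0.158, limma). ANXA1, an annexin gene of membrane resealing, averaged 11.99 ± 0.08 in 3D and 11.61 ± 0.03 in 2D and rose by 0.39 (adjusted p = 0.0367, limma), which ended without any single array other than 3D replicate 1 (with adjusted p up to 0.15, limma).

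Of 37 symbols on the list of apical membrane traffic and lumen formation 21 were measured. Of these, 2 rose, 3 fell and 16 did not pass (23.8% called, beside 10% of all genes, median -0.03). The 37 symbols include NHERF1 with its older symbol SLC9A3R1 and PALS1 with its older symbol MPP5, all not analysed here. On the apical list, the GTPase genes RAB11A, RAB11B, RAB25 and CDC42 were not analysed here. None of the called shares of the lists was tested against that of all genes. MYO5B encodes the myosin motor that carries recycling vesicles to the apical surface. It averaged 7.24 ± 0.21 in 3D and 5.96 ± 0.04 in 2D (SD, n = 3 each) and rose by 1.28 ± 0.12 (SE, adjusted p = 0.000792, limma). TJP3, a tight junction scaffold gene, averaged 7.14 ± 0.16 in 3D and 5.74 ± 0.12 in 2D and rose by 1.40 (adjusted p = 0.000433, limma). PARD3, which encodes a core polarity scaffold, read 8.15, 8.15 and 8.18 in 3D replicates 1 to 3, against 9.08, 9.06 and 9.08 in 2D replicates 1 to 3. It fell by 0.92 ± 0.08 (SE, adjusted p = 0.000606, limma) with arrays that hardly differed within a group. RAB11FIP2, an effector of the recycling GTPase RAB11 that also binds MYO5B, averaged 8.73 ± 0.13 in 3D and 9.23 ± 0.03 in 2D and fell by 0.50 (adjusted p = 0.0192, limma). PARD6B, the polarity partner of PARD3, fell by 0.49 (adjusted p = 0.0220, limma) and falls outside the naming rule, as it was picked with its value known. The RAB11FIP2 call ended without any single array other than 3D replicate 1 (with adjusted p up to 0.0727, limma), and the PARD6B call without any array except 3D replicate 1 or 2 (adjusted p up to 0.0922, limma). Podocalyxin (PODXL), the apical cargo of SYTL2 named above, gave 0.09 ± 0.09 (SE), with 6.95 ± 0.07 in 3D and 6.86 ± 0.06 in 2D, and did not pass. PODXL was likewise picked with its value known.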

How the data were processed

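Per the labels' protocols, biotin-labelled material from 100 ng of total RNA of each sample was put on 1 array. The deposited values are log2 values that the authors made with RMA, per the submitters' processing notes; RMA corrects background, equalises the arrays' distributions and summarises each probe set, and it compresses differences of dim probe sets. For its version, its probe grouping and any filter, nothing is given in the sources used here. The scale was inferred from the values (0.30 to 13.87). The annotation gave 1 symbol to 16098 of 53617 probe sets and none to 37519; all 16098 gene identifiers were found in RefSeq (GRCh38.p14). A gene was read from its probe set with the highest mean. The annotation is that of a Human Gene ST array, while the labelling protocol names a 3′ IVT kit, and the table holds no detection calls.

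Group alone was fitted with limma 3.58.1 in R 4.3.3 over 14884 genes (two-sided, moderated variances, Benjamini-Hochberg adjustment, threshold 0.05). The members and lists were chosen with earlier results of these data known. Named were all measured members, up to 4 called genes a list with the largest difference, RAB27A and RAB27B, and the 3 nearest profiles of the members with the largest rise and fall, leaving out dim genes and unnamed loci. The alternatives were other normalizations, probe set rules, variance models and tests, a dim filter, the replicate number as a block and each array left out. The number of arrays limits the precision.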

Additional observations from a re-analysis of the deposited data

How the results depend on the processing

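As a description, the difference ran from 2.80 to 3.16 for SYTL5 and from 2.54 to 2.92 for FER1L6 over the 16 alternatives. The per-gene test with unequal variances called 0 of the 7 genes (2 at an unadjusted p under 0.05) and 82 of all genes. SYTL5 and FER1L6, chosen with their differences known, are among the 7, so nothing is read from these counts. The share of all genes at an unadjusted p is not given here for that test. SYTL2, SYTL4 and MYOF kept their direction and did not pass in any alternative. Leaving out 3D replicate 2 or 3 reversed SYTL1 to 0.02 or 0.11, leaving out 2D replicate 1 to 0.08, and SYTL3 reversed to 0.04 without 3D replicate 3, each far from passing. With single arrays left out SYTL1 ran from -0.17 to 0.11 and SYTL3 from -0.13 to 0.04. The cause was not tested.

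Over all genes, 661 passed when all probe sets were tested singly, 592 against a 1.2-fold limit (treat) and 760 with the replicate block, against 1488. With each array left out they numbered 775 to 1899, the highest without 3D replicate 1, and 795 and 775 without 3D replicates 2 and 3. The replicate numbers did not pair the arrays: deviations of arrays with the same number correlated at -0.28, -0.06 and -0.18. No array correlated best with the array of its own number in the other group. The block gave 1 call on the RAB27 list, 3 on the tandem C2 list, 0 on the SNARE list (4 at an unadjusted p under 0.05), 2 on the membrane repair list and 3 on the apical list.

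The lists' calls depended on the setting. Counts on the tandem C2 list here include SYTL5, FER1L6 and the other measured genes of both families. Against 3, 5, 1, 4 and 5 calls on the RAB27, tandem C2, SNARE, membrane repair and apical lists, testing all probe sets singly gave 1, 3, 1, 1 and 3, and the 1.2-fold limit 1, 3, 0, 1 and 3 (1 SNARE gene at an unadjusted p under 0.05). The test with unequal variances gave 0, 0, 0, 0 and 1, with 6, 8, 2, 16 and 8 genes at an unadjusted p under 0.05. For the settings other than the main fit, the share of all genes at an unadjusted p is not given here. Nothing is therefore read from these unadjusted counts. Trended and robust variance, set together, gave 10 membrane repair and 3 SNARE calls, and a repeated quantile normalization 2 SNARE calls. With each array left out the calls numbered 2 to 5, 3 to 7, 1 to 3, 2 to 4 and 3 to 6. With 3 arrays a group, small differences cannot be settled.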

Other observations

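Neighbouring genes were looked up in RefSeq after the data had been seen, to describe whether genes beside SYTL5 and FER1L6 differed as well. XK, encoding a membrane protein of red cells and the nearest measured gene before SYTL5 on chromosome X, averaged 5.32 in 3D and 4.79 in 2D and rose by 0.53 ± 0.11 (SE, n = 3 each, adjusted p = 0.0240, limma). RPGR, encoding a ciliary protein and the nearest on the other side, gave -0.06 ± 0.10 (SE, adjusted p = 0.799, limma). H2AP, a histone-related gene that lies within the SYTL5 locus, read 3.92 in 3D and 3.99 in 2D and did not pass (adjusted p = 0.843, limma). Around FER1L6, TMEM65, encoding a mitochondrial inner membrane protein, averaged 8.38 in 3D and 8.83 in 2D and fell by 0.45 ± 0.09 (SE, adjusted p = 0.0226, limma). ANXA13, an annexin gene of the intestine on the other side, gave 0.12 ± 0.16 (SE, adjusted p = 0.715, limma). Among the measured genes nearest to SYTL5 and FER1L6, XK and TMEM65 were thus the ones that passed, and they differed in opposite directions.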
